A study of Mus musculus with 4 samples.

Results

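Reln, Dab1, Vldlr and Lrp8 were described here, 4 of the 21937 genes in 4 single-cell count matrices from the embryonic mouse telencephalic midline. They were chosen by name as the Reelin ligand, its adaptor and its receptors, and each was found under 1 gene identifier in every matrix. The tissue was dissected around the cortical hem, the signalling centre at the dorsal midline of the telencephalon, and took in Cajal-Retzius cells and hippocampal primordium. Controls carried Lmx1aCre::Ai9, in which Cre expressed from Lmx1a turns on the red reporter tdTomato in the hem lineage and its descendants. The other genotype carried Lmx1aCre::Ai9::b-cat gof, which adds a gain-of-function allele of beta-catenin, the effector of canonical Wnt signalling, and is called gof below. Both genotypes therefore carried the Cre and the reporter, and a control without Cre was not analysed here. Each genotype gave 1 library at E11.5, pooled from 5 male embryos, and 1 at E14.5, pooled from 3 male embryos. The question was how constitutive Wnt signalling in hem progenitors affects the Cajal-Retzius cells that the hem makes.

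Reelin is a large secreted glycoprotein that Cajal-Retzius cells, early-born neurons at the surface of the cortex, release into the marginal zone. It binds VLDLR and LRP8 (also called ApoER2) on migrating neurons and radial glia, and the bound receptors lead to phosphorylation of DAB1, a cytoplasmic adaptor, by Src family kinases. Loss of the ligand, of the adaptor or of both receptors disturbs the layering of cortex and hippocampus. The sending gene (Reln) and the receiving genes (Dab1, Vldlr, Lrp8) are described apart.

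On the mm10 assembly Reln lies on the minus strand at chr5:21884454-22344702, Vldlr on the plus strand at chr19:27216484-27254231, Dab1 on the plus strand at chr4:103619359-104744844 and Lrp8 on the plus strand at chr4:107802261-107876840. All 4 are protein-coding, with 65 exons in the longest transcript of Reln, 19 in Vldlr, 16 in Lrp8 and 15 in Dab1. The promoter windows of Reln and Vldlr are printed because they differ most plainly in base composition, a contrast chosen after the windows had been read. Each runs from 250 bases before to 50 bases after a transcription start, 5′ to 3′ on the gene's strand, with CG pairs in capitals (RefSeq, GRCm38.p6; Reln chr5:22344656-22344955, minus strand; Vldlr chr19:27216234-27216533, plus strand).
Reln: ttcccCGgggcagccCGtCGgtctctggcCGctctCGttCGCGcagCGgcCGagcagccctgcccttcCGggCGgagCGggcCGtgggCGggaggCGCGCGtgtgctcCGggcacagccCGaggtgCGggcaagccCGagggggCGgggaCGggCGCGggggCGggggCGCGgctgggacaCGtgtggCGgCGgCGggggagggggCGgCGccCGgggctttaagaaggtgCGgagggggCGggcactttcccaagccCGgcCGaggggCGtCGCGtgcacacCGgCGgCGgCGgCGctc
Vldlr: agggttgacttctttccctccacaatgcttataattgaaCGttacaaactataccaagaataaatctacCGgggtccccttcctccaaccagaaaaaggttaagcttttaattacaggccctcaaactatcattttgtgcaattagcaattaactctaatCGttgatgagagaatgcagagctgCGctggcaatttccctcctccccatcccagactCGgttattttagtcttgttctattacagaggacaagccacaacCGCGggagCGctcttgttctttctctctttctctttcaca
The Reln window holds 47 CG pairs and is 80.7% G or C, against a median of 7 CG pairs and 52.7% over 32851 windows of 300 bases, of which 90% hold fewer than 31. The Vldlr window holds 8 CG pairs at 43% G or C, and the second Vldlr window 23. The cores of a T-box site (GGTGTGA) and of a TCF/LEF site (CTTTGA), the DNA letters bound by Cajal-Retzius T-box factors and by the partners of beta-catenin, were searched on both strands in all 8 windows of the 4 genes. Neither was found in any of the 8, while 3.98% of all windows hold the T-box core and 16.0% the TCF/LEF core. This says only that these letters are not in these windows.

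The libraries held between 6263 and 8677 barcodes and between 59594082 and 113821989 UMIs (unique molecular identifiers, each standing for 1 captured transcript). After barcodes of low quality and likely doublets were left out, 6510 control and 7024 gof cells of E11.5 and 6606 control and 5317 gof cells of E14.5 remained. In that order, their median depths were 8172.5, 5644, 12885.5 and 14072 UMIs. Pairs of libraries shared 12 to 18 barcodes. Cells with 2 or more tdTomato UMIs, called tdTomato-positive here, numbered 563, 294, 1110 and 1043, and cells with 0 tdTomato UMIs are called tdTomato-negative. These states follow UMI counts and need not match the Cre lineage. By the marker gates described below, 12.3% of red blood cell precursors and 32.4% of hem cells were positive in the E11.5 control. In the E14.5 control 71.0% of hem cells were positive. The 7 hem markers summed to between 331 and 909 counts per 1000000 UMIs (CPM) and none of them was at 0 in any library. The E11.5 gof library had more non-neural RNA than its control, with mesenchymal markers at 899 against 393 CPM and erythroid markers at 24690 against 17469 CPM. Since each group was 1 library, no test between groups was possible, and every interval is an exact 95% interval for counting error alone. A gene is called higher or lower where it changed at least 1.5-fold after 1 CPM was added and its intervals did not overlap, among genes at 10 CPM or more in either group. Fewer cells of a type and less RNA per cell cannot be told apart in values summed over a whole library.

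Reln, the sender, was the member with the largest difference between genotypes over all cells, at E14.5. Over all cells it stood at 21.2 CPM (interval 20.1 to 22.3) in the E11.5 control and 20.6 CPM (19.4 to 21.9) in the E11.5 gof library. At E14.5 it stood at 284 CPM (280.6 to 287.3) in the control and 46.6 CPM (45.2 to 48.1) in gof, a log2 ratio of -2.58. The E14.5 control was thus high and the other 3 libraries low. Among all genes, 8.39% were called between genotypes at E11.5 and 11.1% at E14.5. After each cell was thinned to 3000 UMIs, 19.9% of E14.5 control cells had a Reln UMI against 7.69% in E14.5 gof, and 6.07% and 4.82% in the E11.5 control and gof libraries.

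The reporter sharpened this difference. In tdTomato-positive cells of E14.5, Reln was 959 CPM (945.6 to 972.9) in the control and 66.8 CPM (63.2 to 70.4) in gof, a log2 ratio of -3.82, against a background of 23.5% of genes called. In tdTomato-negative cells it was 84.0 CPM in the control and 39.4 CPM in gof, a log2 ratio of -1.07, where 9.40% of genes were called. Both reporter states were therefore lower in gof, the positive cells by more. Whether these log2 ratios differ could not be tested with 1 library a group. At E11.5 tdTomato-positive cells had 25.8 CPM (22.7 to 29.3) in the control and 37.4 CPM (31.3 to 44.3) in gof, a log2 ratio of 0.52 that was not called, where 10.3% of genes were.

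**Figure D1:**
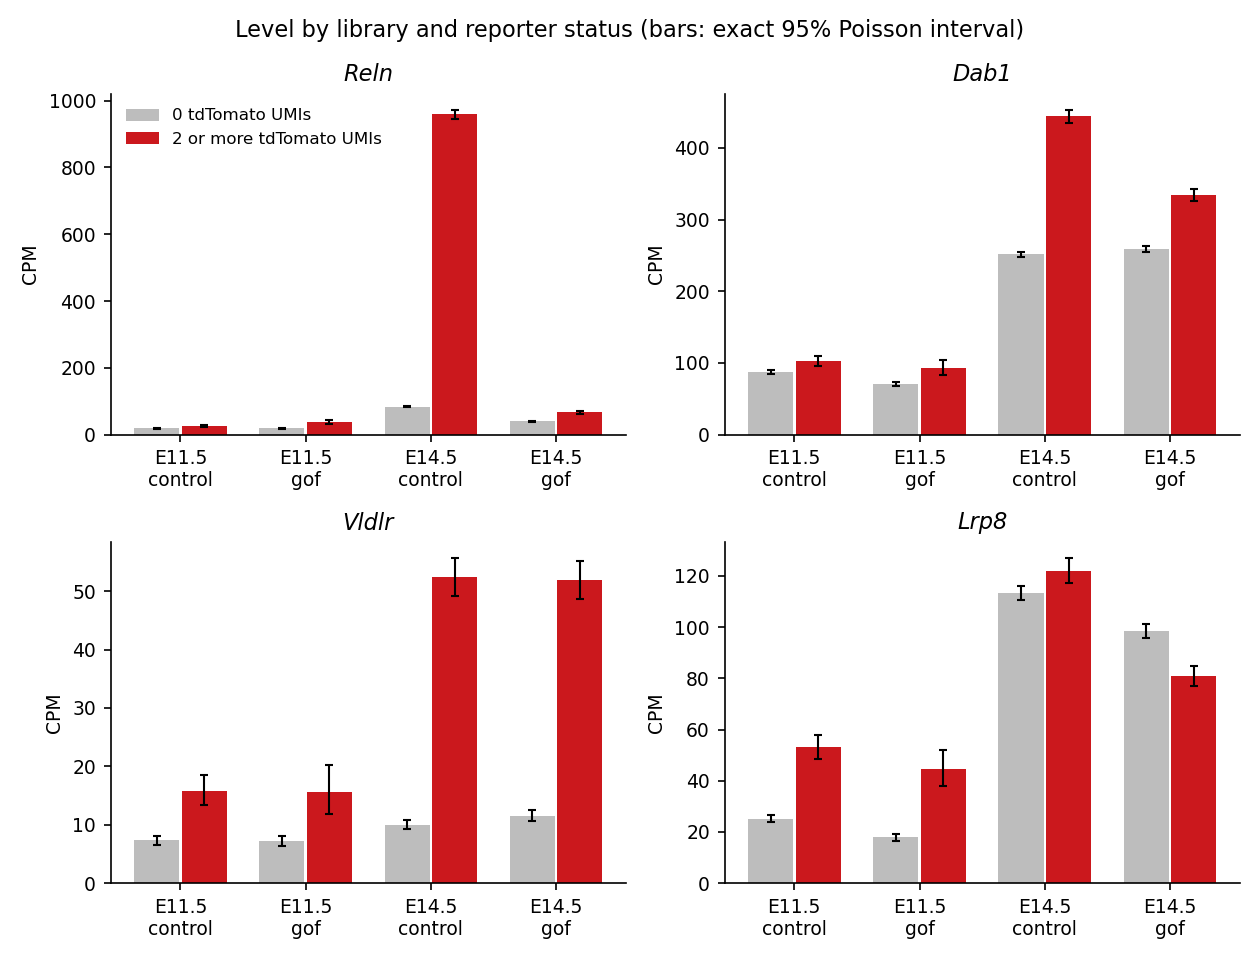
Level of Reln, Dab1, Vldlr and Lrp8 (CPM, linear axis) in cells with 0 and with 2 or more tdTomato UMIs in each of the 4 libraries, with exact 95% Poisson intervals for counting error. Reln of tdTomato-positive cells reached 959 CPM in the E14.5 control and 66.8 CPM in E14.5 gof, while Vldlr stood higher in tdTomato-positive cells in every library.

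Within a library, the reporter-positive cells of the E14.5 control held more Reln than its reporter-negative cells by a log2 ratio of 3.50, with 19.1% of genes called in that contrast. The same ratio was 0.75 in E14.5 gof, where 17.9% of genes were called, and 0.97 in E11.5 gof, where 13.5% were. In the E11.5 control it was 0.42 and not called, with 8.53% of genes called.

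Cell classes were gated by detected marker genes, none of them a member. A Cajal-Retzius-gated cell had a UMI of at least 4 of 9 Cajal-Retzius markers (among them Trp73, the p73 transcription factor of hem-derived Cajal-Retzius cells, which was required). At E11.5 there were 188 such cells in the control (2.89% of kept cells) and 172 in gof (2.45%). At E14.5 there were 425 in the control (6.43%, exact binomial interval 5.85 to 7.05) and 46 in gof (0.87%, 0.63 to 1.15). Cells with any Trp73 UMI numbered 399 and 351 at E11.5, and 621 and 69 at E14.5. Gated cells were therefore few in the E14.5 gof library alone, and the values below for it rest on 46 cells.

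Reln in these cells was 264 CPM (237 to 293) in the control and 232 CPM (200 to 268) in gof at E11.5. At E14.5 it was 3484 CPM (3436 to 3533) in the control and 1074 CPM (1002 to 1149) in gof. The E11.5 pair overlapped, with 7.22% of genes called between them. The E14.5 pair lay apart, a log2 ratio of -1.70, with 16.9% of genes called. Between ages, Reln of gated cells was higher at E14.5 by a log2 ratio of 3.72 in controls and 2.21 in gof, where 44.9% and 29.1% of genes were called. After thinning, Reln was detected in 49.5%, 37.1%, 94.4% and 54.3% of gated cells, in the order above. Unthinned, the shares were 66.0%, 47.7%, 99.5% and 87.0%, at median depths of 5514, 4114, 11844 and 13243.5 UMIs. In pallial progenitors, taken as cells that should lack it, the thinned shares were 1.74%, 2.18%, 2.13% and 0.745%, at median depths of 9646, 7687, 12993 and 14798 UMIs.

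Counted cell by cell, a gated cell of the E14.5 control held a median of 36 Reln UMIs and at most 235, and one of E14.5 gof a median of 4 and at most 133. Cells with 20 or more Reln UMIs were 288 of 425 (67.8%) in the control and 9 of 46 (19.6%) in gof. At E11.5 the medians were 1 in the control and 0 in gof, with highest values of 14 and 16. The ranges of the E14.5 genotypes overlapped, both from 0, while most control cells and few gof cells passed 20 UMIs. Without the 2 highest cells of each library, a choice made after the data had been examined, the log2 ratio was -2.14.

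The reporter split the gated cells of E14.5. Those with 2 or more tdTomato UMIs had 3672 CPM of Reln in the control (323 cells, median 40 UMIs) and 700 CPM in gof (32 cells, median 4 UMIs), a log2 ratio of -2.39. Those with 0 or 1 tdTomato UMI had 2797 CPM in the control (102 cells, median 25) and 2556 CPM in gof (14 cells, median 12.5), a log2 ratio of -0.13. Of the 397 Reln UMIs of those 14 gof cells, 2 cells held 235, and the other 12 had 1364 CPM. Of the 432 UMIs of the 32 reporter-positive gof cells, 2 cells held 251, and the other 30 had 311 CPM. The gof levels of both reporter states therefore rest on few cells, while the control levels without their 2 highest cells were 3617 and 2663 CPM. This split was added after the data had been examined. At E11.5 the reporter-positive gated cells went the other way, 147 CPM in 22 control cells and 402 CPM in 11 gof cells, but 1 of those 11 held 16 of their 33 Reln UMIs and the other 10 had 235 CPM.

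**Figure D2:**
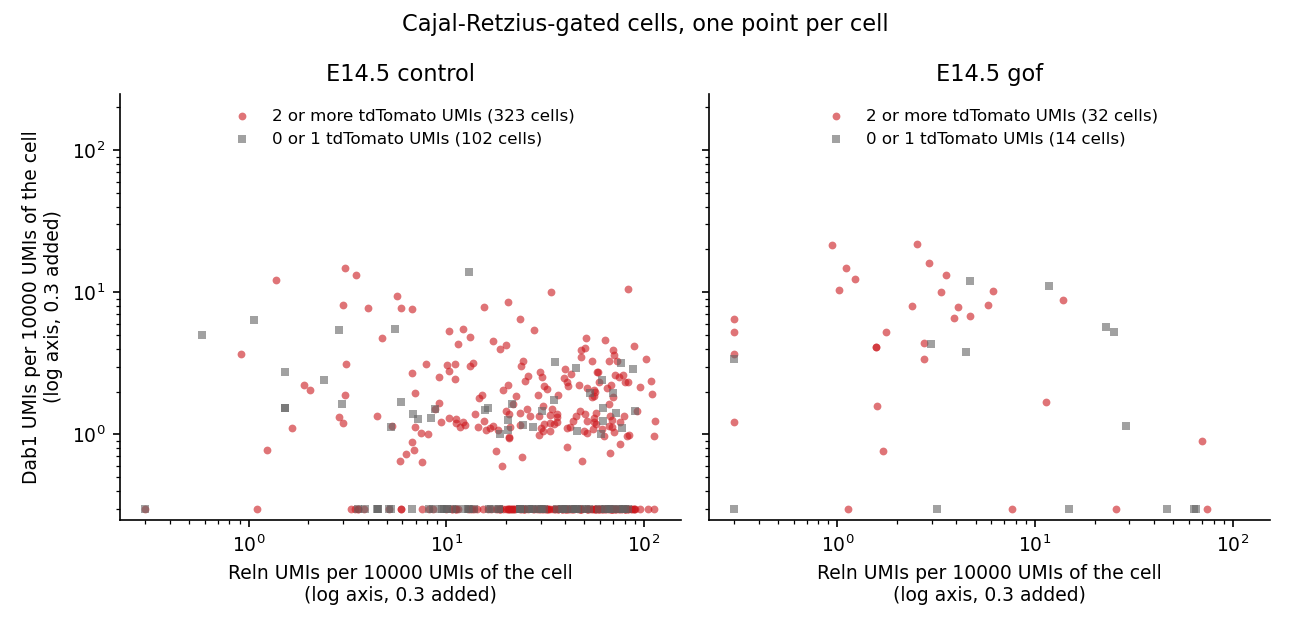
Reln and Dab1 in every Cajal-Retzius-gated cell of the 2 E14.5 libraries, as UMIs per 10000 UMIs of the cell with 0.3 added on log axes, coloured by tdTomato status. The 425 control cells gather at high Reln, while the 46 gof cells spread down in Reln and reach higher Dab1.

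The gated cells of the E14.5 libraries also differed in other genes. Trp73 was 338 CPM in the control and 168 CPM in gof, Lhx1 was 311 and 170 CPM, and Nhlh2, a transcription factor of Cajal-Retzius cells, was 802 and 236 CPM. Ebf3 was 410 and 361 CPM, and Ebf2 was 134 and 219 CPM. Neurod6, a marker of pallial glutamatergic neurons, was 19.3 CPM in the control and 171 CPM in gof, and the Wnt targets Lef1 and Notum were 222 and 0.7 CPM in the control against 473 and 35.0 CPM in gof. Cells that also met another gate were 308 of 425 (72.5%) in the control and 26 of 46 (56.5%) in gof. The part of these differences in the Reln values was not tested.

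A second gate, named Trp73-negative Lhx and Ebf neurons here, took neurons with no Trp73 UMI and at least 3 Cajal-Retzius markers. No Lhx or Ebf gene was itself required by this gate. It held 193, 288, 62 and 159 cells, of which 6, 11, 29 and 142 were tdTomato-positive, so it was larger in E14.5 gof than in its control. In the same order, 74.6%, 75.7%, 35.5% and 62.9% of its cells had 0 Reln UMIs. Their Reln was 105 CPM and 77.2 CPM in the E11.5 control and gof libraries, and 1015 CPM (950 to 1084) and 95.01 CPM (83.0 to 108) at E14.5, a log2 ratio of -3.40 where 24.7% of genes were called. In these cells Lef1 rose from 257 to 723 CPM and Notum from 0 to 111 CPM in the E14.5 pair, and Lhx5 fell from 45.6 to 4.6 CPM.

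Most Reln transcripts of the E14.5 control were in Cajal-Retzius-gated cells. The Cajal-Retzius gate held 70.3% (69.7 to 70.8) of its Reln UMIs, against 21.3% (19.98 to 22.6) in E14.5 gof, 24.5% in the E11.5 control and 18.7% in E11.5 gof. With the gate applied after thinning the E14.5 shares were 35.97% and 5.54%, and with cells that met several gates left out they were 21.5% and 6.79%. Put as parts of the whole-library level, the gate gave 199.5 CPM in the E14.5 control and 9.91 CPM in gof. The Trp73-negative gate gave 8.94 and 2.70 CPM, and all other cells gave 75.5 and 34.0 CPM. Reln was thus lower in gof in each of the 3 sources. As the gate was drawn the difference was largest in its cells, while under either other gating above most of it lay outside the gate. Cells that those gatings took out of the gate were then counted as outside it. With cells of several gates left out, these included 308 of the 425 control cells gated above. Over the summed UMIs of the cells outside both gates as drawn, Reln was 80.8 CPM in the control and 35.3 CPM in gof. This was a log2 ratio of -1.17, with 10.8% of genes called. Among tdTomato-positive cells outside both gates it was 137 and 40.2 CPM, a log2 ratio of -1.75 with 23.1% of genes called.

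**Figure D3:**
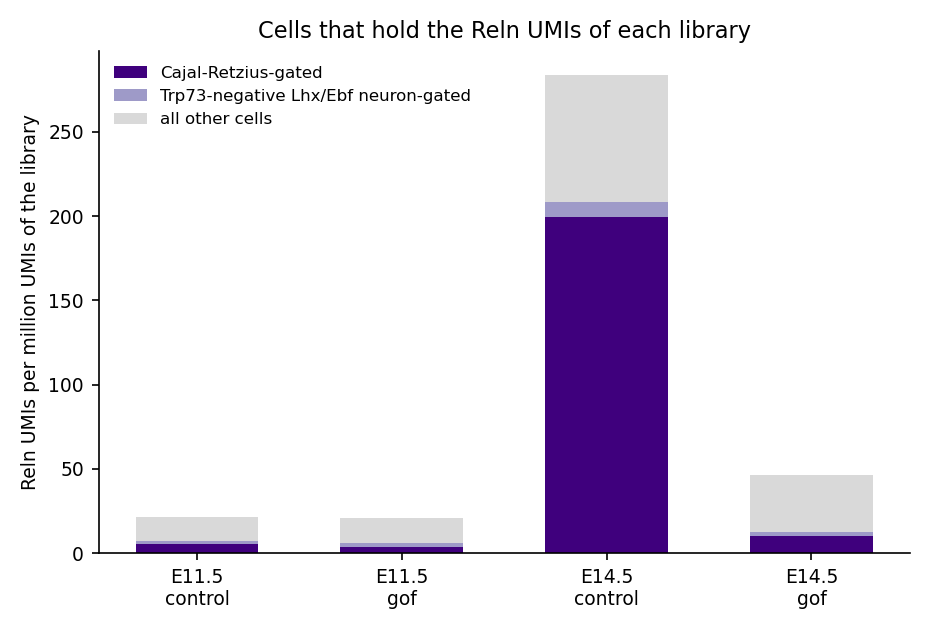
Reln of each whole library (CPM) divided into the parts given by Cajal-Retzius-gated cells, Trp73-negative Lhx and Ebf neurons and all other cells. The Cajal-Retzius part is 199.5 CPM in the E14.5 control and 9.91 CPM in E14.5 gof.

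Lower Reln was seen in further classes of E14.5 gof, among them pallial progenitors, taken above as cells that should lack it. In those it was 6.85 CPM (5.90 to 7.91) in the control and 3.27 CPM (2.54 to 4.14) in gof, a log2 ratio of -0.88. The part of RNA free in the droplets in the values of any class was not tested. Cells gated as intermediate progenitors, for which Eomes was required, had 152 CPM in the control and 53.6 CPM in gof. This was a log2 ratio of -1.49 with 13.6% of genes called. The gate set no limit on neuronal markers, of which its cells had a median of 5 in both libraries. It may therefore hold young neurons as well as dividing precursors. Among intermediate progenitors in which no Cajal-Retzius marker was detected, Reln was 25.8 CPM in 408 control cells and 16.2 CPM in 439 gof cells. With 2 or more such markers detected it was 243 and 81.1 CPM. Reln in this class therefore moved with the number of Cajal-Retzius markers detected in the same cells, whose part in the difference between genotypes was not tested. Choroid plexus-gated cells had 94.7 and 23.6 CPM, a log2 ratio of -1.96 with 33.2% of genes called, and 1 control cell held 158 of the 432 control UMIs. Hem-gated cells had 88.4 and 65.7 CPM and were not called, with 21.7% of genes called. At E11.5 the hem-gated cells were higher in gof, 16.3 CPM (13.3 to 19.7) in the control and 29.2 CPM (23.6 to 35.8) in gof, where 6.74% of genes were called.

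**Figure D4:**
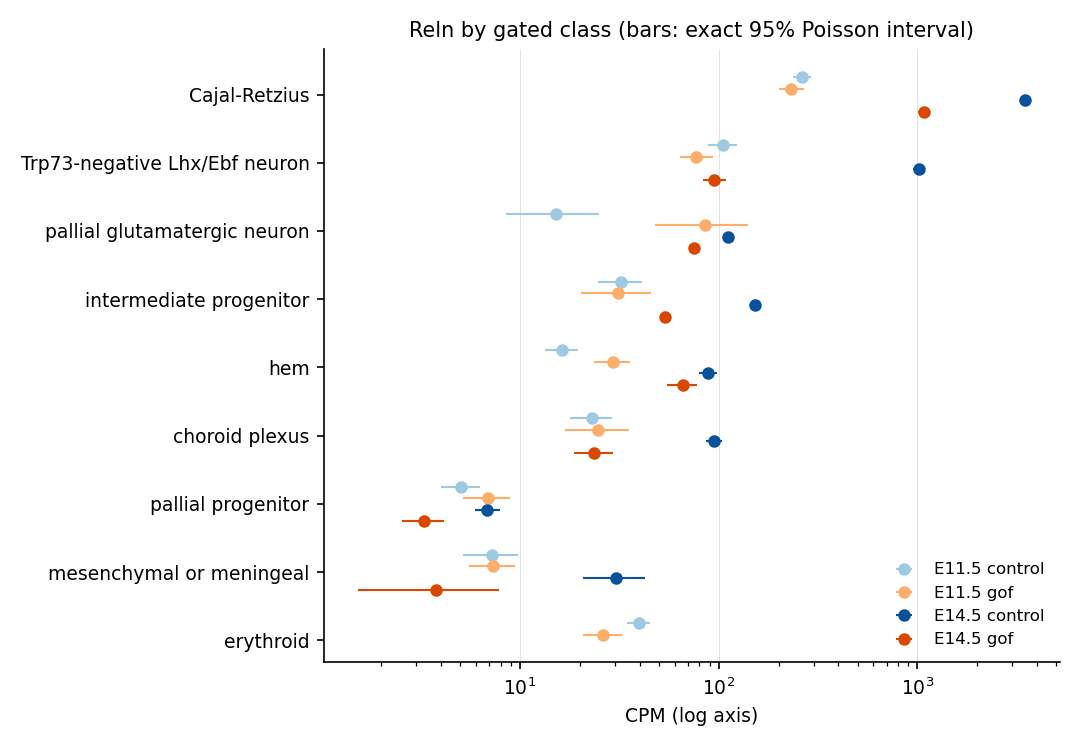
Reln (CPM, log axis) by gated cell class in each library, with exact 95% Poisson intervals for counting error, for classes of at least 30 cells. Cajal-Retzius-gated cells lead in every library, from 232 CPM in E11.5 gof to 3484 CPM in the E14.5 control.

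Ordered by level over the named classes of at least 50 cells in the E14.5 control other than mesenchymal cells, Reln ran from Cajal-Retzius-gated cells at 3484 CPM through Trp73-negative Lhx and Ebf neurons at 1015, intermediate progenitors at 152 and pallial glutamatergic neurons at 111. Choroid plexus followed at 94.7, hem at 88.4 and pallial progenitors at 6.85 CPM. Among these classes, only the intervals of choroid plexus and hem overlapped between neighbours. Of the smaller classes, endothelial cells lay below this order, at 2.86 CPM in 14 cells. The others fell inside it, with 284 CPM in 8 diencephalic cells, 187 CPM in 28 cells of the GABAergic lineage, and the mural and myeloid values given below.

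Reln was also found where neural cells were few. Erythroid-gated cells, the red blood cell precursors of E11.5, had 39.7 CPM (34.7 to 45.2, 293 cells) in the control and 26.2 CPM (20.8 to 32.6, 235 cells) in gof. Restricted to those with at most 1 neural progenitor and 1 pan-neuronal marker, they had 64.1 CPM (53.8 to 75.8, 156 cells) in the control and 25.5 CPM (19.6 to 32.5, 207 cells) in gof. The restricted cells had 0.9 and 2.0 CPM of Dab1, no Vldlr UMI in either library and 5.18 and 3.18 CPM of Lrp8, values that the choice of cells with few neural markers can set. The whole erythroid gate had 62.4 and 9.16 CPM of Dab1 in the control and gof. Thinned, 15.4% of the control cells and 10.1% of the gof cells had a Reln UMI, against 1.17% and 0.989% of mesenchymal cells in the same libraries. Median depths were 13038.5 and 11353 UMIs in the restricted cells and 7300 and 6012 in the mesenchymal ones. The whole erythroid gate held 15.5% of the control's Reln UMIs and 7.87% of those in gof, beside 8.27% and 6.21% of all UMIs. This selection was likewise made after the data had been examined. Endothelial cells were low, at 5.2, 0.7, 2.9 and 1.3 CPM across the 4 libraries. Mural cells, the support cells of vessels, had 115 CPM (88.3 to 148, 33 cells) in the E14.5 control and 8.33 CPM in E14.5 gof. Myeloid cells of the E14.5 control had 244 CPM, of which 1 cell held 121 of the 125 UMIs.

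On the receiving side, no member was called between genotypes over all cells at either age. Dab1, the adaptor, stood at 89.8 and 71.7 CPM in control and gof at E11.5, and at 297 and 282 CPM in control and gof at E14.5. Vldlr stood at 9.20, 8.49, 19.5 and 21.5 CPM, and Lrp8 at 30.8, 21.2, 115 and 93.98 CPM. The ages were thus far apart and the genotypes close. Between ages all 4 members were called higher at E14.5 in both genotypes, with log2 ratios in controls of 1.72 for Dab1, 1.005 for Vldlr, 1.87 for Lrp8 and 3.68 for Reln. In gof, in the same order, they were 1.96, 1.246, 2.09 and 1.14. These counts are read against 59.5% of genes called between ages in controls and 59.4% in gof.

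Of the receptors, Vldlr was called higher with the reporter in every library, and Lrp8 at E11.5 alone. Vldlr was higher in tdTomato-positive than in tdTomato-negative cells of all 4 libraries, by log2 ratios of 1.02 and 1.03 in control and gof at E11.5, and 2.27 and 2.07 at E14.5. Lrp8 was higher at E11.5, by 1.04 in the control and 1.27 in gof, and lay at 0.10 and -0.28 at E14.5, where it was not called. Dab1 was called in the E14.5 control alone, at 0.82, and lay at 0.23, 0.38 and 0.37 in the others. Over all genes, 6.11% in control and 9.31% in gof were called higher with the reporter at E11.5, and 13.6% and 12.1% at E14.5. Positive cells were also deeper, with medians of 13508 against 7827 UMIs in the E11.5 control and 9688 against 5517.5 in E11.5 gof. At E14.5 they were 13621 against 12507 in the control and 15904 against 13316.5 in gof. The part of depth in these values was not tested. Between genotypes, tdTomato-positive cells of E14.5 had 444 CPM of Dab1 in the control and 334 in gof, a log2 ratio of -0.41, and 52.3 and 51.8 CPM of Vldlr. Lrp8 in those cells was 122 CPM in the control and 80.9 CPM in gof, a log2 ratio of -0.59, and was called, though 6 of the alternatives below end that call. Outside both Lhx and Ebf gates, a choice added after the data had been examined, tdTomato-positive cells had 533 CPM of Dab1 in the control and 321 CPM in gof, a log2 ratio of -0.73 that was called.

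Dab1 was highest in hem-gated cells of the E14.5 control, 945 CPM (915 to 975), and was lower in those of gof, 490 CPM (459 to 521), a log2 ratio of -0.95 that was called. With 1 marker fewer the ratio was -0.49, and with the gate after thinning -0.42, neither called. Vldlr in the same cells was 76.4 and 77.3 CPM, and Lrp8 121 and 92.3 CPM. Of the 3 receiving genes 1, Dab1, was called in the hem, in 307 control and 123 gof cells, beside 21.7% of all genes called and 14.2% called lower. Choroid plexus-gated cells had lower values of all 3 receiving genes in gof. They went from 312 to 171 CPM for Dab1, 48.9 to 29.3 for Vldlr and 71.0 to 38.1 for Lrp8. In that contrast 33.2% of all genes were called and 21.4% called lower. The gof cells of this gate had a median of 4 choroid plexus markers, the number needed to pass, against 6 in the control. Hem-gated cells had a median of 4 hem markers in gof and 6 in the control. The part of these marker differences in the values of either class, Reln included, was not tested. In pallial glutamatergic neurons, which receive Reelin as they migrate, Dab1 was 542 CPM in 914 control cells and 602 CPM in 908 gof cells.

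Across the same classes of the E14.5 control, Dab1 ran from hem (945 CPM) to pallial glutamatergic neurons (542), choroid plexus (312), Trp73-negative Lhx and Ebf neurons (275), pallial progenitors (266), intermediate progenitors (151) and Cajal-Retzius-gated cells (149). The first 3 were separate, and the intervals of later neighbours overlapped except between pallial and intermediate progenitors. Vldlr ran from hem (76.4 CPM) and Cajal-Retzius-gated cells (59.1) to pallial progenitors (6.34). Lrp8 ran from intermediate progenitors (201 CPM) to pallial progenitors (43.8), with pallial glutamatergic neurons (127), Cajal-Retzius-gated cells (126) and hem (121) overlapping.

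**Figure D5:**
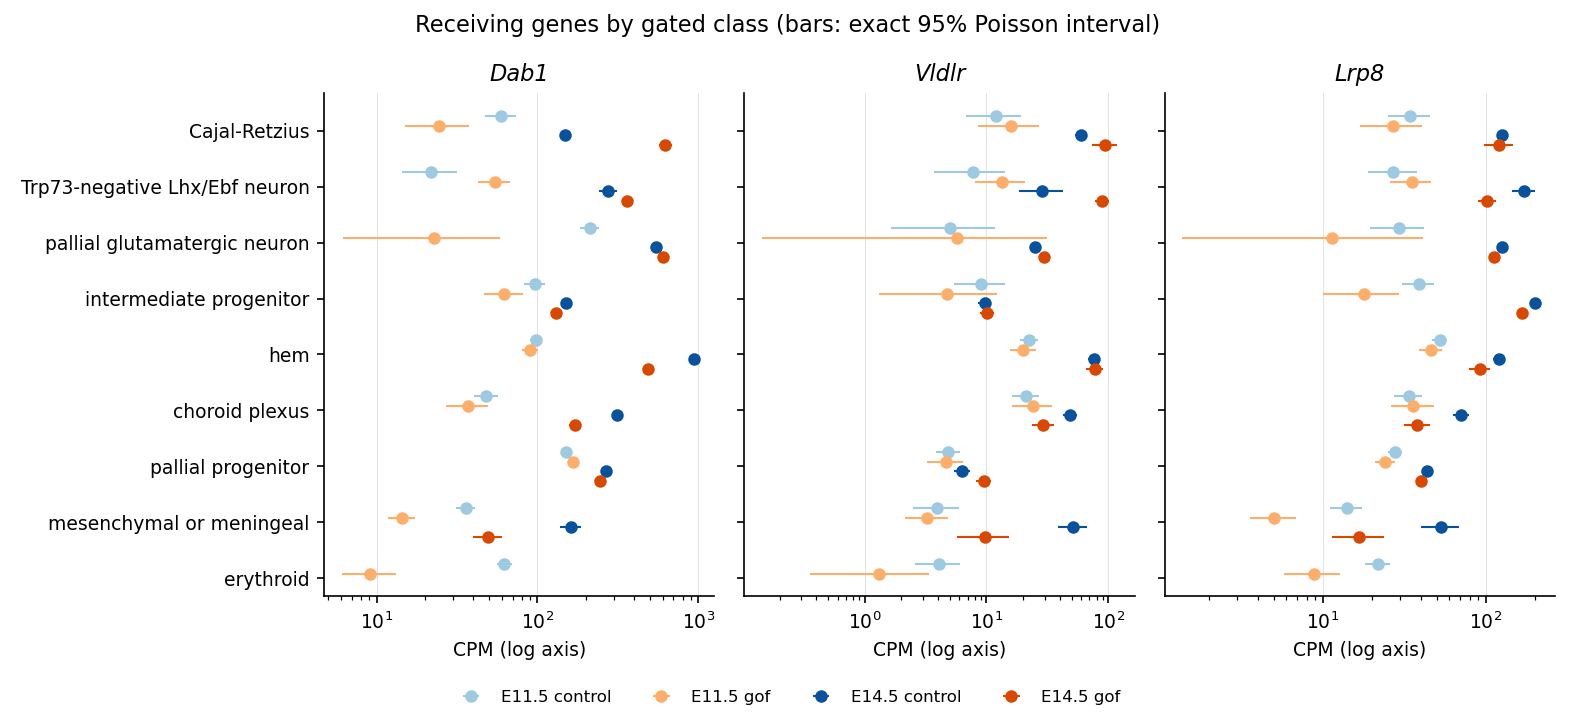
Dab1, Vldlr and Lrp8 (CPM, log axis) by gated cell class in each library, with exact 95% Poisson intervals for counting error. Dab1 of hem-gated cells is 945 CPM in the E14.5 control and 490 CPM in E14.5 gof, and Dab1 of Cajal-Retzius-gated cells is 149 and 624 CPM.

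Sending cells also carried receiving genes, and here the genotypes differed in Dab1. In Cajal-Retzius-gated cells Dab1 was 149 CPM (139 to 159) in the E14.5 control and 624 CPM (570 to 683) in E14.5 gof, a log2 ratio of 2.06. At E11.5 it was 59.5 CPM (47.2 to 74.0) in the control and 24.4 CPM (14.9 to 37.7) in gof, a log2 ratio of -1.25 that several alternatives below end as a call. In the Trp73-negative Lhx and Ebf neurons, E11.5 Dab1 went the opposite way. It was 21.8 CPM in the control and 54.1 CPM in gof, a log2 ratio of 1.27. That was called, where 5.87% of genes were. Of the 77 Dab1 UMIs of those gof cells, 1 cell held 21 and another held 20. A Dab1 UMI was found in 9.84% of the control cells and 10.4% of the gof cells, so the higher gof level rests on few cells. In the reporter-positive Cajal-Retzius-gated cells of E14.5 Dab1 was 151.9 CPM in the control and 711.6 CPM in gof. A Dab1 UMI was in 55.4% and 87.5% of those cells, with medians of 1 and 9 UMIs. In the reporter-low ones it was 137.5 and 276.9 CPM. Thinned, 21.4% of E14.5 control and 63.0% of E14.5 gof gated cells had a Dab1 UMI, beside 13.4% and 8.05% of non-neural cells, whose median depths were 11883.5 and 16538 UMIs. Vldlr in E14.5 gated cells was 59.1 and 93.2 CPM, a log2 ratio of 0.65 whose call ended under 4 alternatives (0.50 to 0.77), and Lrp8 was 126 and 120 CPM. The Neurod6, Lef1 and gate-marker values given above for these cells stand beside this result too.

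In the Trp73-negative Lhx and Ebf neurons of E14.5, Vldlr was 28.5 CPM in the control and 88.7 CPM in gof, a log2 ratio of 1.60, which was 0.51 and not called when gated after thinning. Lrp8 was 172 and 103 CPM, a log2 ratio of -0.74, and Dab1 was 275 and 360 CPM. Vldlr was thus called higher and Lrp8 lower in gof in these cells, where 9.64% of genes were called higher and 15.1% lower. Of these cells, 29 of 62 in the control and 142 of 159 in gof were tdTomato-positive. A Vldlr UMI was in 37.9% and 65.5% of the positive ones. In those with 0 or 1 tdTomato UMI the shares were 6.06% and 41.2%. The part of the reporter make-up in the pooled values was not tested.

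Sending and receiving were set side by side in single neural cells thinned to 3000 UMIs. In the E14.5 control, Dab1 was detected in 43.1% of cells with 0 Reln UMIs (2135 of 4948), 29.96% of cells with 1 to 4 (269 of 898) and 19.4% of cells with 5 or more (69 of 356). Vldlr went from 4.2% to 8.2% and 11.52% over the same cells, and Lrp8 was 24.2%, 37.5% and 31.2%. In E14.5 gof, Dab1 was 39.3%, 36.8% and 33.3%, the last of 7 in 21 cells. In the control, the Dab1 share was thus lowest and the Vldlr share highest in cells with 5 or more Reln UMIs. Cells with 5 or more Reln UMIs after thinning made up 5.63% of the E14.5 control cells and 0.416% of those of E14.5 gof, 357 and 21 cells, of which 297 and 10 were Cajal-Retzius-gated.

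Cells with Dab1 and at least 1 receptor, the pair needed to receive Reelin, were 37.4% of hem-gated cells in the E14.5 control (114 of 305) and 20.3% in gof (25 of 123). In pallial glutamatergic neurons they were 17.9% and 21.1%. Among Cajal-Retzius-gated cells they were 8.7% (37 of 425) and 21.7% (10 of 46). The share was thus lower in gof in the hem. It was higher in pallial glutamatergic neurons and in the Cajal-Retzius gate, the latter on few gof cells. In both of these classes the intervals of control and gof overlapped, while in the hem they did not. Further classes are not given here.

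Endothelial cells, few in number, had more Lrp8 than other classes at E14.5. The 14 cells of the control held 719 CPM and the 18 cells of gof 245 CPM, with an Lrp8 UMI in 71.4% and 72.2% of cells. At E11.5 the level was 32.4 CPM in 46 control cells and 20.7 CPM in 117 gof cells.

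The wider pathway was read from 58 genes, ligands, receptors, proteases, kinases, adaptors and targets, of which 57 were in the files. Over all cells at E11.5, 4 of 48 tested were called higher and 1 lower, beside 4.39% higher and 4.01% lower over all genes, with a median log2 ratio of -0.10 beside -0.11 for all genes. In tdTomato-positive cells of E11.5, 4 of 50 were higher and 4 lower, beside 4.68% and 5.66% over all genes, with a median of 0.00 beside -0.08. Over all cells at E14.5, 3 of 52 were higher and 3 lower, beside 3.04% and 8.10%, with a median of -0.04 beside -0.09. In tdTomato-positive cells of E14.5, 5 of 52 were higher and 10 lower, beside 6.84% and 16.6%, with a median of -0.14 beside -0.12. The list's medians therefore lay close to those of all genes in each contrast.

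Among genes acting outside the cell, Pcsk6, a proprotein convertase that can cleave Reelin, was 62.2 CPM in the control and 23.5 CPM in gof in tdTomato-positive cells of E14.5, and 23.6 and 10.1 CPM over all cells. Clu (clusterin), which binds both receptors, was 133 and 47.2 CPM in those positive cells and 40.8 and 19.2 CPM over all cells. Plat, tissue plasminogen activator, went from 13.9 to 34.5 CPM in the positive cells. Adamts3, a protease that cuts Reelin, was 21.3 and 13.1 CPM in positive cells of E11.5, and 18.1 and 28.3 CPM over all cells of E14.5. Adamts5 was 14.51 and 9.05 CPM over all cells of E14.5. Thbs1, a ligand of the receptors, was 14.02 and 27.8 CPM over all E11.5 cells, and Selenop, which binds LRP8, was 19.2 and 34.1 CPM. The mesenchymal marker sum was higher in the same gof library, and its part in these values was not tested.

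Among genes acting on or in the receiving cell, Mylip, the ubiquitin ligase that degrades both receptors, was called higher in gof in all 4 contrasts. It went from 5.5 to 10.2 CPM over all E11.5 cells, 3.99 to 15.9 CPM in E11.5 positive cells, 7.59 to 12.1 CPM over all E14.5 cells and 10.3 to 27.9 CPM in E14.5 positive cells. Efnb1, an ephrin-B ligand, was 44.2 and 28.2 CPM in positive cells of E11.5, and at E14.5 65.3 and 116 CPM over all cells and 32.4 and 76.6 CPM in positive cells. App, the amyloid precursor, was 124 and 230 CPM in positive cells of E11.5. Downstream, Map1b, a microtubule-associated protein, was 381 and 211 CPM over all E11.5 cells and 411 and 208 CPM in positive cells. Cdk5r1, the p35 activator of Cdk5, was 137 and 72.5 CPM in positive cells of E14.5. Of the listed genes, Mylip alone was called in the same direction in all 4 contrasts, of which those of positive cells are part of those over all cells.

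The genes most like each member were found by Pearson's r of log levels across 40 combinations of library and class, over 12869 genes, as a description without a test. Points of 1 library share their depth and dissection. For Reln they were Trp53inp1 (0.870), Lgals7, Ypel3, Scn3a and Bcl2l1 (0.841). For Dab1 they were Slc35f1 (0.911), Hectd2, Tenm4, Masp1 and Dclk1 (0.899), and for Vldlr Rfx3 (0.903), Cystm1, Kcnk2, Lrp1b and Lrrn2 (0.880). For Lrp8 they were Syt7 (0.90005), Nfib, Cd1d1, Rnf182 and Dusp14 (0.886). Among the members themselves r ran from 0.395 (Dab1 with Reln) to 0.794 (Dab1 with Lrp8).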

How the data were processed

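The deposited files hold raw UMI counts per gene and barcode. The submitters' processing notes name Cell Ranger (version 7.1.0) and the mm10 build, and the gene annotation was not given in the sources used here. Gene coordinates come from GENCODE M21. Libraries used 10x 3′ chemistry v3.1, per the labels' protocols. From the deposited counts, barcodes with under 1000 genes or over 10% mitochondrial UMIs were left out, then the highest Scrublet scores (0.8% per 1000 barcodes), called through scanpy 1.11.5. Scrublet's own threshold marked 0, 0, 2 and 401 barcodes, and its score was used only to rank. CPM is summed UMIs over all UMIs of the cells, with exact Poisson intervals; shares have Clopper-Pearson intervals (scipy 1.17.1), and were thinned to 3000 UMIs. Droplet libraries hold free RNA, so shares are given beside those of cells that should lack the gene. Cell classes are gates on detected markers. Calls used the 1.5-fold rule given in the report, and no p-value was computed, since each group was 1 library. The pipeline was tested on simulated counts. The labels' titles say E11 and E14 and the series text E11.5 and E14.5; the latter is used. The members and lists were chosen with earlier results of these data known. The number of markers each gate needs was set after marker detection and gate sizes, not member levels, had been seen. Genes outside the members were named as those called with the 3 largest changes in each direction among the pathway list, and genes most like a member as the 5 highest r. Alternatives changed the filter, doublet removal, scaling, pseudocount, reporter threshold and gates. A protein comparison was not run.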

Additional observations from a re-analysis of the deposited data

Results flagged for a closer look

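Dab1 in Cajal-Retzius-gated cells had log2 ratios of opposite sign at the 2 ages, gof over control, -1.25 at E11.5 and 2.06 at E14.5; this difference between ages was not tested, since each group was 1 library. Cells with exactly 1 tdTomato UMI, which the reporter comparison leaves out, stood above the tdTomato-negative cells of their library by the call rule in the cases named next. In the other pairs of gene and library they were not called, and Dab1 in E11.5 gof (61.6 against 71.2 CPM) and Lrp8 in E14.5 gof (96.3 against 98.6 CPM) were lower. Their Reln was 29.0 CPM in the E11.5 control and 240 CPM in the E14.5 control. Their Vldlr was 12.7 CPM in the E11.5 control, 13.9 CPM in E11.5 gof and 16.1 CPM in the E14.5 control. Their Lrp8 was 38.6 CPM in the E11.5 control and 30.6 CPM in E11.5 gof.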

How the results depend on the processing

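No paired analysis was possible because each group was 1 library. Of 467 alternatives to the values that answer a comparison, 421 were counted as unchanged. For log2 ratios this meant that the call, with its direction, stayed the same. For shares it meant a value inside the interval of the main result. Reln at E14.5 stayed called lower in gof under every alternative run, from -2.70 to -2.49 over all cells, -4.11 to -1.75 in tdTomato-positive cells and -2.39 to -1.58 in Cajal-Retzius-gated cells, except that gated cells with 0 or 1 tdTomato UMI alone gave -0.13. Dab1 in gated cells of E14.5 ran from 1.01 to 2.29 and stayed called. Dab1 in tdTomato-positive cells of E14.5 (-0.41) became called outside both Lhx and Ebf gates (-0.73). Reln in tdTomato-positive cells of E11.5 (0.52) became called with median-ratio scaling (0.60), the stricter cell filter (0.81) and 4 tdTomato UMIs (1.02). Reln in gated cells of E11.5 (-0.19) turned to 1.44 in tdTomato-positive gated cells alone. The call of Dab1 in gated cells of E11.5 (-1.25) was lost with the stricter filter (-1.43), all barcodes (-0.60), no doublets removed (-0.58), 1 more marker (-1.10), gating after thinning (-1.56), cells in several gates left out (-0.61) and tdTomato-positive cells alone (-0.23). That of Lrp8 in tdTomato-positive cells of E14.5 (-0.59) was lost without hemoglobin, mitochondrial and ribosomal genes (-0.53), with median-ratio scaling (-0.46), the stricter filter (-0.55), all barcodes (-0.54), no doublets removed (-0.53) and 1 tdTomato UMI (-0.45). Vldlr in Trp73-negative neurons of E14.5 (1.60) was not called when gated after thinning (0.51) or with cells in several gates left out (1.70), nor Dab1 in the hem of E14.5 (-0.95) with 1 marker fewer (-0.49) or after thinning (-0.42). The reporter contrast of Reln became called in the E11.5 control (0.42) with the stricter filter (0.72) and no doublets removed (0.59), and lost its call in E14.5 gof (0.75) as a mean of per-cell CPM (0.56) and at 1 tdTomato UMI (0.53). The gated share of Reln UMIs moved to 21.4, 16.6, 12.1 and 14.3% in the E11.5 control (stricter filter, 1 more marker, thinned gate, several gates left out), and to 12.7, 15.3, 10.1 and 13.5% in E11.5 gof, with 21.4% at 1 marker fewer. In the E14.5 control it was 68.4% (all barcodes), 71.3% (more doublets removed), 68.7% (none removed), 69.0% (1 more marker), 69.3% (1 fewer), 35.97% (thinned gate) and 21.5% (several gates left out), and in E14.5 gof 18.5% (more doublets removed), 5.54% (thinned gate) and 6.79% (several gates left out). The split by tdTomato, leaving out the highest cells, the cells outside both gates and the choice of cells with few other markers were chosen after seeing the data. The causes were not tested. Calls over all genes went from 706 to 1613 with no level filter and 242 at 50 CPM over E11.5 cells, from 899 to 280 at 50 CPM in tdTomato-positive cells of E11.5, from 1086 to 1979 and 390 at E14.5, and from 2403 to 3739 and 971 in tdTomato-positive cells of E14.5.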
